A study of Rattus norvegicus with 10 samples.

Results

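The genes described here are the 10 listed genes of serotonin (5-HT) synthesis, vesicular and membrane transport, breakdown and serotonergic identity (Tph1, Tph2, Ddc, Slc6a4, Slc18a1, Slc18a2, Maoa, Maob, Fev and Lmx1b), followed through 10 RNA sequencing libraries of rat primary cortical neuron cultures. They were listed by name, with no threshold on their values. The deposited table of 32883 genes carries Ensembl identifiers alone, and an identifier could be paired with a symbol for 6 of the 10: Tph1 (ENSRNOG00000011672), Tph2 (ENSRNOG00000003880), Slc6a4 (ENSRNOG00000003476), Slc18a1 (ENSRNOG00000011992), Fev (ENSRNOG00000017856) and Lmx1b (ENSRNOG00000017019). Ddc, Slc18a2, Maoa and Maob were not analysed here, so the breakdown step has no measured gene. The pairs of identifier and symbol came from the study's own supplementary lists of genes upregulated in these same cultures, of which the strongest part was readable. The upward direction of the 6 genes with their drug is therefore not independent evidence, and nothing is read from how many of them rose.

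The cultures were prepared from cortices of newborn Wistar rats, grown for 2 weeks and exposed at the end of that time, without washout, to broad-spectrum inhibitors of histone deacetylases (HDACs), which take acetyl marks off histones. Cultures kept for 19 h in 100 nM trichostatin A (TSA, n = 3) were set against untreated cultures of the same project (n = 3), and cultures kept for 24 h in sodium butyrate (NaB, n = 2) against untreated time-matched cultures of another project (n = 2). The labels give the NaB dose as 5 µM, whereas the written methods give the same figure in millimolar units. Drug, duration and project changed together, so a difference between the TSA and NaB data cannot be assigned to the drug. The cultures hold neurons and glia, whose shares were not analysed here, and in such bulk RNA fewer cells of a type and less RNA per cell cannot be told apart. Each library held between 26070908 and 27649249 reads assigned to genes, and 3 reads in a library correspond to between 0.109 and 0.115 CPM (reads scaled to the library total). Values below are reads recovered from the deposited normalized counts, or those normalized counts themselves (reads divided by 1 size factor per library).

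Serotonin is made from tryptophan by a tryptophan hydroxylase, which needs the cofactor tetrahydrobiopterin, followed by aromatic amino acid decarboxylase (Ddc). It is loaded into vesicles by a vesicular monoamine transporter, taken back into the cell by the serotonin transporter and broken down by monoamine oxidases. In the adult brain these steps are combined in raphe neurons of the brainstem, which use Tph2 and depend on the transcription factors Fev and Lmx1b, whereas Tph1 is known from the gut, the pineal gland and other peripheral cells. The cerebral cortex receives serotonergic axons but is not known to hold the cell bodies of serotonergic neurons.

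The promoters of the measured genes are shown first, to set the sequence at the start of Tph1, Fev and Lmx1b, which rose from near 0 with both drugs, beside that of Tph2, which followed another pattern. RefSeq promoter windows on the GRCr8 build, each from 250 bases before to 50 bases after an annotated start, were at hand for 4 of the 6 measured genes: Tph1 (chr1:106314579-106314878, minus strand), Tph2 (chr7:52675590-52675889, minus strand), Fev (chr9:83891669-83891968, minus strand) and Lmx1b (chr3:37338508-37338807, minus strand). The expression table was made on another build (Rnor_6.0), and no coordinate was carried between them. Sequences run 5′ to 3′ on the gene's strand, and capitals mark the GC box letters GGGCGG or their reverse complement CCGCCC and the TATA box letters TATAAA or TTTATA.
Tph1: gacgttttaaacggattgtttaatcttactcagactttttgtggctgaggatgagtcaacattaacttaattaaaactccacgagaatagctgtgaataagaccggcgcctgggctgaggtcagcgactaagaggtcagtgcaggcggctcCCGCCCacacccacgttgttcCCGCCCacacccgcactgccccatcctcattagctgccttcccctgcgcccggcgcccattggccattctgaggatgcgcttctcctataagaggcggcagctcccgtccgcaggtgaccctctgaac
Tph2: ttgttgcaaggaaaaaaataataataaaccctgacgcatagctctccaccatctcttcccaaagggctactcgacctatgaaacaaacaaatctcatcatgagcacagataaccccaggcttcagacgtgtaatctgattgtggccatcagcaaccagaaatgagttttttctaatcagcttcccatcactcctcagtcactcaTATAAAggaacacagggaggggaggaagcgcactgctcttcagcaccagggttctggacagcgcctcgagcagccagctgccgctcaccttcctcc
Fev: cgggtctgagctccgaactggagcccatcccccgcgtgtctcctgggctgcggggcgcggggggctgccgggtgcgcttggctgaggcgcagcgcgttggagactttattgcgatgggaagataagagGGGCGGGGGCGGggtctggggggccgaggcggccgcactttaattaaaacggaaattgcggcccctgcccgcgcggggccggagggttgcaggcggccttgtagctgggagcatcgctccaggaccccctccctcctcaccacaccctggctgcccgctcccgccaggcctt
Lmx1b: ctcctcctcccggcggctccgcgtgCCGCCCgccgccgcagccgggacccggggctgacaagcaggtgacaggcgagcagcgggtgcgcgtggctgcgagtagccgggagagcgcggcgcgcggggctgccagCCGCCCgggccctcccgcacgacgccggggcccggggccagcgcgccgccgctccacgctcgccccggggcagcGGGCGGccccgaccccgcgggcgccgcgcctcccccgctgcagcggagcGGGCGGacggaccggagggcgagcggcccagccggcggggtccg

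The Lmx1b window held 54 CpG dinucleotides, more than 99.7% of the 33469 rat promoter windows, and 84.7% of its bases were G or C. The Fev window held 28 CpGs, more than in 87.3% of windows, and the Tph1 window held 18, more than in 72.5%. The Tph2 window held 7, which was the median of all windows. GC boxes were found 4 times in the Lmx1b window, 2 times in the Fev window and 2 times in the Tph1 window, with the Fev pair lying end to end at -122 and -116 from the start site. No GC box letters were in the Tph2 window, which held TATAAA at -46. GC box letters occurred on either strand in 33.1% of all windows and TATAAA in 14.2%. Of the other letters searched on both strands, CCAAT (37.5% of all windows) was found in the Tph1 window at -20 on the reverse strand, and the homeodomain core TAATTA (5.36% of all windows) was found in the Tph1 window at -183 and the Fev window at -82. The letters TGACGTCA (1.83% of windows) and CACGTG (6.42%) were in none of the 4 windows. These matches describe the letters in these windows only.

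To assess the change of the serotonin genes with each drug, all 15717 genes that passed a filter on low counts were fitted together by limma on log2(normalized count + 1), and a gene was called upregulated or downregulated when its Benjamini-Hochberg adjusted p was below 0.05 and its log2 fold change was at least 0.5 in size. With TSA, all 6 measured serotonin genes were called upregulated, where 22.5% of all tested genes were called upregulated and 19.7% downregulated. With NaB, 5 of the 6 were called upregulated, where 21.2% of all tested genes were called upregulated and 20.3% downregulated. Both HDAC inhibitors thus moved a large share of the transcriptome, and among tested genes with a mean normalized count below 20 in the controls the upregulated share was 52.6% with TSA and 46.3% with NaB. The median log2 fold change of the 6 genes was 3.00 with TSA and 3.05 with NaB, against a median over all tested genes of 0.02 with each drug. Tph1, Slc6a4, Fev and Lmx1b had fewer than 10 reads in every control library and passed the filter only through treated libraries, so these counts are a description and not support.

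Tph1, the tryptophan hydroxylase of peripheral cells, was close to the detection limit in untreated cultures of both projects and rose strongly with both drugs. Its recovered reads were 4, 1 and 4 in the TSA-project controls and 73, 42 and 48 in the TSA-treated libraries. They were 4 and 7 in the NaB-project controls and 84 and 94 in the NaB-treated libraries. Every treated library lay above every control library of its project, as it did for 33.1% of all tested genes with TSA and 40.2% with NaB. The same shares stand beside the separations of treated from control libraries described below. Mean normalized counts were 3.17 ± 1.86 in the TSA-project controls and 51.0 ± 15.7 after TSA (SD, n = 3 each), a 16.1-fold ratio. They were 5.72 ± 2.24 in the NaB-project controls and 85.0 ± 7.95 after NaB (SD, n = 2 each), a 14.8-fold ratio. By limma the log2 fold change of Tph1 was 3.72 (SE 0.42, adjusted p = 3.3e-05) with TSA and 3.71 (SE 0.51, adjusted p = 0.00018) with NaB. With a pseudocount of 5 the TSA value was 2.77. Over 22 alternatives the NaB value ran from 3.08 to 4.18. Plate pairs here join the control and treated library of the same replicate number within a project. The methods state that pairs shared a plate, but which libraries these were is inferred here. The log2 change lay between 3.18 and 4.26 in the 3 TSA pairs. It lay between 3.46 and 3.97 in the 2 NaB pairs.

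Tph2, the hydroxylase of serotonergic neurons, followed another pattern from the other 5 genes. Its identifier came from the TSA list alone, and theirs from the lists of both drugs. Their contrast in the NaB response is therefore not independent evidence. In the TSA project its reads were 4, 3 and 6 in the controls and 16, 13 and 17 after TSA. In the NaB project its reads were 66 and 157 in the controls and 84 and 150 after NaB. The TSA-treated libraries thus stood above their own controls without overlap, but both were below every library of the NaB project, where control and treated libraries overlapped. The TSA-project means were 4.57 ± 1.68 and 14.4 ± 2.43 normalized counts (SD, n = 3 each), a log2 fold change of 1.50 (SE 0.38, limma adjusted p = 0.0063). With NaB the means were 116 ± 67.6 (SD, n = 2) and 112 ± 46.1 (SD, n = 2), and the log2 fold change was 0.02 (SE 0.47, 95% confidence interval -1.02 to 1.06, limma adjusted p = 0.98). That interval leaves room for a doubling or a halving. The NaB-project libraries went with their inferred plate pair more than with the drug. Normalized counts were 68.3 in the control and 79.4 in the treated culture of one pair, and 164 and 145 in the other.

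Slc6a4, the serotonin transporter of the plasma membrane, was low in all controls and rose to a similar level with both drugs. Its reads were 4, 4 and 7 in the TSA-project controls, against 23, 31 and 39 after TSA. They were 7 and 3 in the NaB-project controls, against 32 and 30 after NaB. Each treated library lay above each control library of its project. Mean normalized counts of 5.27 ± 1.90 and 29.2 ± 8.22 (SD, n = 3 each) gave a 5.54-fold ratio in the TSA project, and 5.19 ± 2.91 and 29.6 ± 0.933 (SD, n = 2 each) a 5.70-fold ratio in the NaB project. The log2 fold changes were 2.27 (SE 0.37, limma adjusted p = 0.00040) with TSA and 2.39 (SE 0.46, limma adjusted p = 0.0014) with NaB.

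Slc18a1, the vesicular monoamine transporter known from endocrine cells (VMAT1), had more reads in the controls than the membrane transporter and more spread among treated libraries. Its reads were 5, 12 and 13 in the TSA-project controls and 31, 32 and 88 after TSA. They were 21 and 14 in the NaB-project controls and 119 and 88 after NaB. Treated libraries lay above control libraries in both projects, as for 33.1% of all tested genes with TSA and 40.2% with NaB. The third TSA-treated library stood well above the others of its group. The log2 fold change was 1.99 (SE 0.46, limma adjusted p = 0.0035) with TSA and 2.39 (SE 0.56, limma adjusted p = 0.0048) with NaB. Without the third TSA-treated library the TSA value was 1.48 (limma adjusted p = 0.012). The mean normalized counts were 10.5 ± 4.59 (SD, n = 3) and 47.8 ± 32.6 (SD, n = 3) in the TSA project, and 18.2 ± 5.04 (SD, n = 2) and 98.6 ± 19.5 (SD, n = 2) in the NaB project.

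Fev (Pet1), an ETS-family factor that drives the serotonergic genes in raphe neurons, was represented by single reads in untreated cultures. The TSA-project controls held 0, 1 and 0 reads and the TSA-treated libraries 37, 20 and 37. The NaB-project controls held 1 and 0 reads and the NaB-treated libraries 45 and 32. All 5 treated libraries were thus well separated from all 5 controls. With 1 read in each control group, the ratio of treated to control was 83.9 with TSA (exact 95% counting interval 14.7 to 3348) and 70.7 with NaB (12.3 to 2828), intervals that cover counting error only. The log2 fold changes were 4.53 (SE 0.47, limma adjusted p = 2.2e-05) and 4.71 (SE 0.58, limma adjusted p = 9.4e-05). These values depend on the pseudocount: with 5 in place of 1 they were 2.65 and 2.91, and Fev was still called with both drugs.

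Lmx1b, a LIM-homeodomain factor needed for the development and upkeep of serotonergic neurons, was not read once in the 5 untreated libraries. Treated libraries held 95, 61 and 93 reads with TSA and 48 and 74 with NaB. Since 0 reads over a control group allow up to 3 reads, which corresponds to a mean normalized count of 1.05 in the TSA-project controls and 1.56 in the NaB-project controls, TSA-treated cultures held at least 74.1-fold higher Lmx1b levels and NaB-treated cultures at least 37.3-fold higher levels than their own controls. Treated cultures had mean normalized counts of 78.2 ± 20.0 (TSA, SD, n = 3) and 58.4 ± 18.4 (NaB, SD, n = 2). By limma the log2 fold change was 6.27 (SE 0.35, adjusted p = 7.5e-07) with TSA and 5.86 (SE 0.43, adjusted p = 6.2e-06) with NaB. Against controls at 0 the size of these values is set by the pseudocount: with a pseudocount of 5 they were 4.03 and 3.63, and both calls held. Even after treatment the normalized count was modest, with a group mean above that of 22.9% of tested genes after TSA and 20.1% after NaB.

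**Figure D1:**
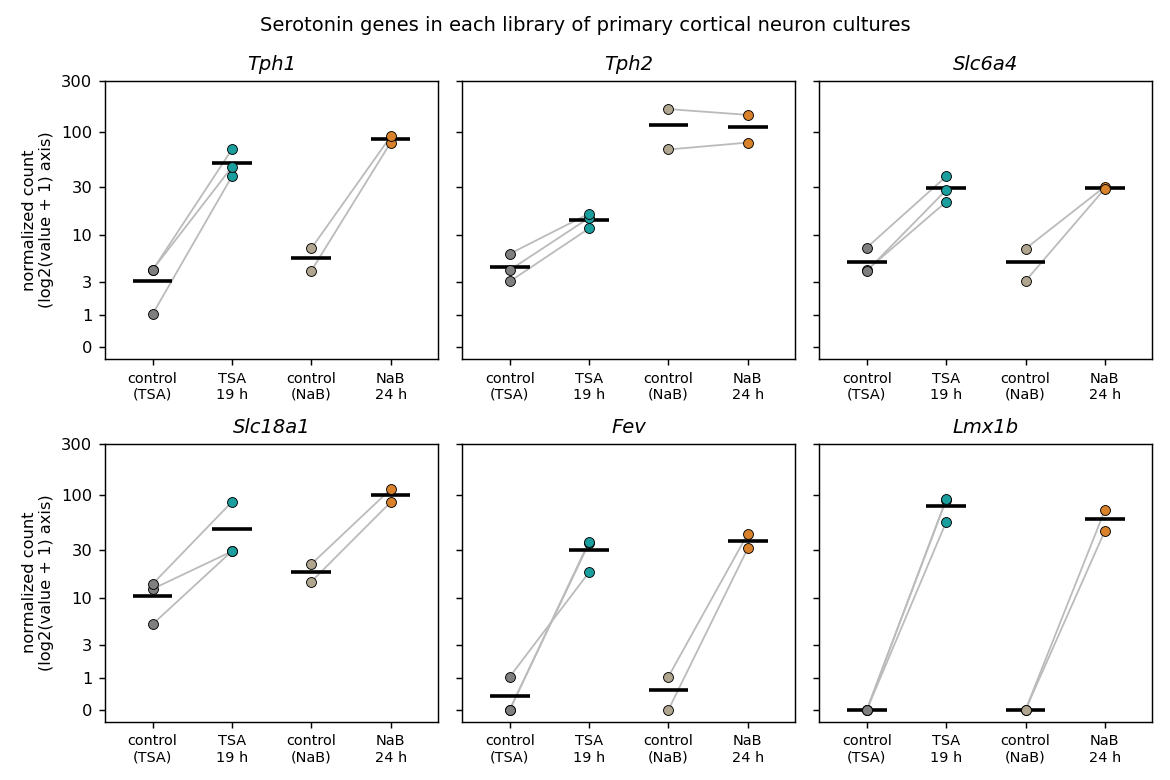
Normalized counts (log2(value + 1) axis) of the 6 measured serotonin genes in each of the 10 libraries, by group. Points are libraries, black bars are group means of the plain values, and grey lines join the control and treated culture of an inferred plate pair. Lmx1b lies at 0 in all 5 controls, while Tph2 lies between 68.3 and 164 in the 4 libraries of the NaB project and between 3.09 and 16.5 in the 6 libraries of the TSA project.

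**Figure D2:**
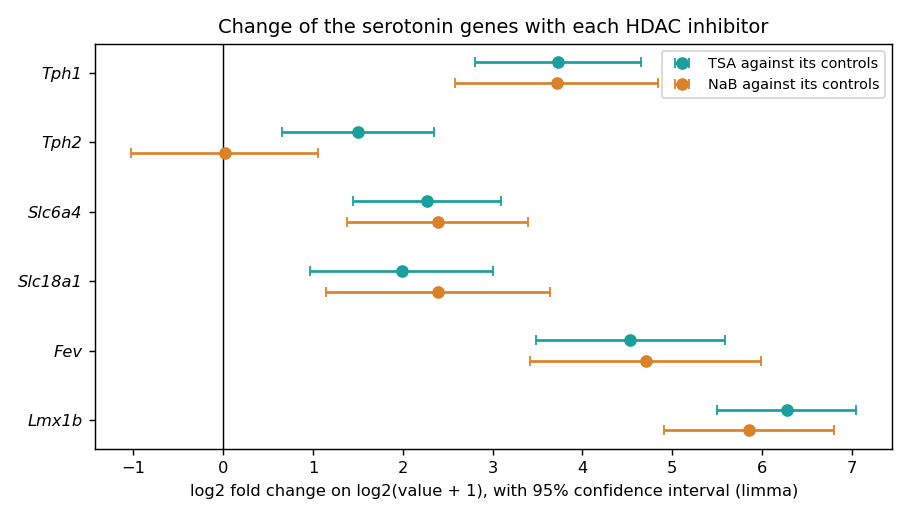
Log2 fold change (x axis, on log2(value + 1)) of each measured serotonin gene with TSA (n = 3 against 3) and with NaB (n = 2 against 2); points are limma estimates and bars are 95% confidence intervals. The interval of Tph2 with NaB, from -1.02 to 1.06, is the single one that includes 0.

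To ask whether the drugs changed the serotonin genes to different extents, the NaB response minus the TSA response was tested in the same limma fit. None of the 6 genes was called, where 0.299% of all tested genes (47 of 15717) were called, 0.0255% towards NaB and 0.274% towards TSA, and with the plate pair as a block 404 genes were called but again none of the 6. Of the 6, 1 had an unadjusted limma p below 0.05. This was Tph2, with a difference of -1.48 (SE 0.61, 95% confidence interval -2.83 to -0.14, limma adjusted p = 0.35, or limma adjusted p = 0.087 with the plate pair as a block). With all 5 controls as 1 group the controls cancel from this contrast, and it compares the treated groups directly. That comparison gave 2.82 for Tph2 (NaB minus TSA, limma adjusted p = 0.29) and does not measure a response difference. For the response difference on the recovered reads, edgeR called none of the 6. DESeq2 called none of the 4 for which it gave an adjusted p (all but Fev and Slc6a4). For the remaining genes the 95% intervals of the difference were -1.47 to 1.45 for Tph1, -1.18 to 1.42 for Slc6a4, -1.21 to 2.01 for Slc18a1, -1.49 to 1.83 for Fev and -1.64 to 0.81 for Lmx1b. These intervals span several-fold differences in either direction for most of the genes and do not show that the responses were alike.

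The untreated cultures of the 2 projects were then compared, since each drug was read against its own controls. Tph2 was the only one of the 6 genes called, where 1.55% of all tested genes were called (0.986% higher and 0.560% lower in the NaB-project controls). Its mean normalized count was 4.57 ± 1.68 (SD, n = 3) in the TSA-project controls and 116 ± 67.6 (SD, n = 2) in the NaB-project controls, 25.4-fold higher, with a log2 difference of 4.31 (SE 0.43, limma adjusted p = 0.0021), the 4th highest of 15717 tested genes. Every NaB-project control lay above every TSA-project control, as for 16.6% of all tested genes. The call was also made by edgeR (adjusted p = 0.0029) and DESeq2 (adjusted p = 7.4e-12), and leaving out any 1 library kept it, with the weakest value of 3.68 (limma adjusted p = 0.030) without the second NaB-project control. In the same untreated cultures Lmx1b had no read, Fev had 1 read in each group, and the log2 difference was -0.06 (SE 0.42) for Slc6a4, 0.77 (SE 0.47) for Tph1 and 0.81 (SE 0.51) for Slc18a1, none of them called. The NaB-project controls thus held Tph2 transcripts at a level above 28.0% of tested genes without the other measured serotonergic genes at more than a few reads, apart from Slc18a1 with 21 and 14. The project, the animals and the incubation time cannot be told apart here. Since Tph2 differed between the control groups, pooling all 5 controls into 1 group turned its TSA value to -0.22 (limma adjusted p = 0.87) and its NaB value to 2.60 (limma adjusted p = 0.092), and neither was called, while the calls of the other 5 genes were the same with pooled controls.

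**Figure D3:**
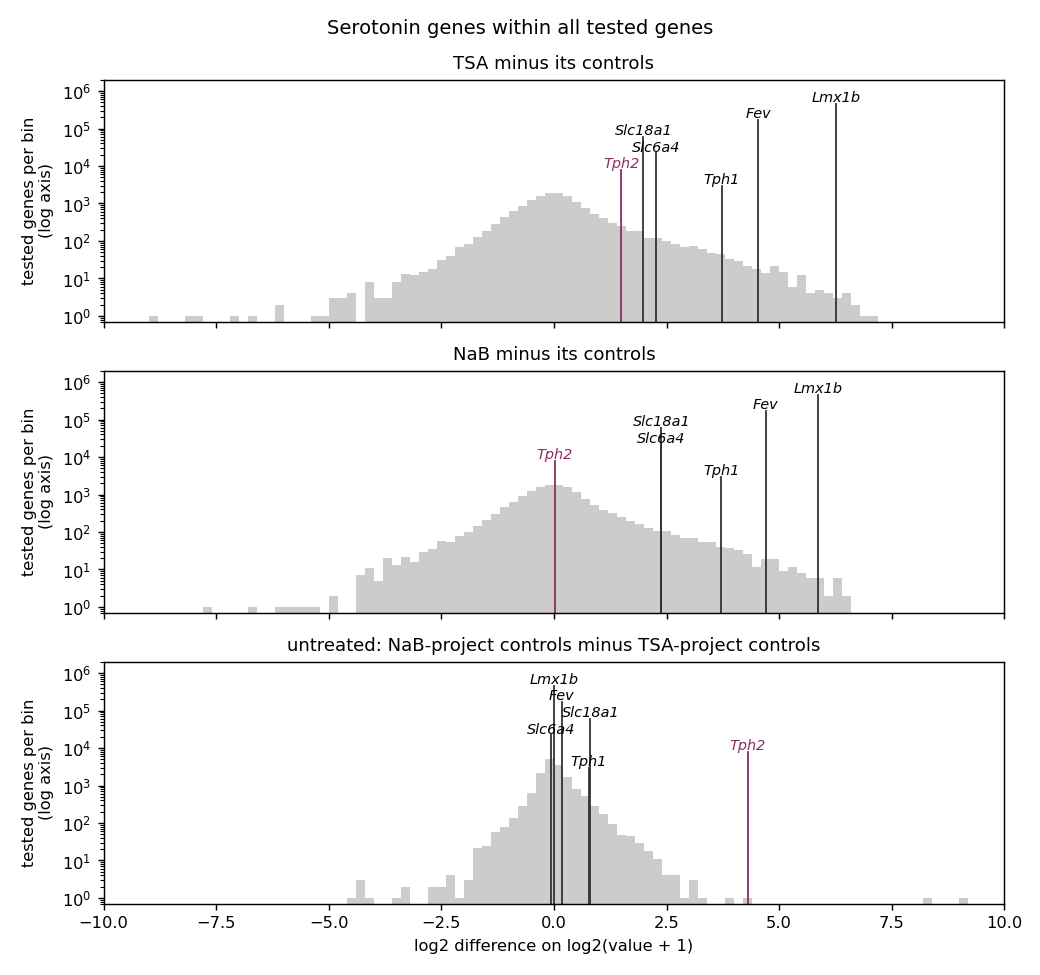
Number of tested genes (log axis) by log2 difference for TSA (top) and NaB (middle) relative to their own controls and for the untreated NaB-project cultures relative to the untreated TSA-project cultures (bottom); vertical lines mark the 6 measured serotonin genes and their heights carry no value. Tph2 (purple) lies at 1.50, 0.02 and 4.31, whereas the other 5 lie far to the right in the upper panels and between -0.06 and 0.81 in the lowest.

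For Tph1, Slc6a4, Slc18a1, Fev and Lmx1b, both control groups had lower means than both treated groups. The mean of Lmx1b alone among these 5 was higher after TSA than after NaB, with libraries that overlapped. After NaB the Tph1 libraries (79.4 and 90.6 normalized counts) lay above the TSA libraries (38.0 to 68.5). The Slc6a4, Slc18a1, Fev and Lmx1b libraries of the treatments overlapped. In the fit with pooled controls, which compares the treated groups directly, none of the 6 genes was called, where 422 of 15717 were. There Tph1 was 0.76 (NaB minus TSA, limma adjusted p = 0.46). For Tph2 the order was TSA-project controls, TSA, NaB and NaB-project controls, and the last pair overlapped. Across the 10 libraries, on log2(value + 1), the Pearson correlation of Lmx1b was 0.98 with Fev, 0.96 with Slc6a4, 0.95 with Tph1 and 0.82 with Slc18a1, but 0.22 with Tph2. Tph2 reached 0.53 with Slc18a1 and 0.44 with Tph1. These coefficients describe libraries that share treatment and project and carry no test.

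Genes whose pattern was most like that of a serotonin gene were taken from the 1829 other tested genes with a symbol, whose symbols likewise came from the lists of upregulated genes. Closest to Lmx1b, which had a higher mean over the libraries than Fev, the other listed transcription factor measured, were Prr23a, Tcfl5 and Tfap2e (each with r between 0.997 and 0.999 over 10 libraries). Prr23a and Tfap2e, an AP-2 transcription factor gene, had no read in any control, as Lmx1b, while Tcfl5 went from a mean normalized count of 89.3 to 829 with TSA. Closest to Slc18a1 were Zfp385c (r = 0.96), Mpp4 (r = 0.95) and Prp2l1 (r = 0.95). Closest to Tph2 were Sned1 (r = 0.97), LOC680227 (r = 0.97) and Cyct (r = 0.96). These 3 were picked for following Tph2 over the same libraries, so their difference between the control groups is a description: it was, towards the NaB-project controls on the log2 scale, 2.04 for Sned1, 9.01 for LOC680227 and 1.90 for Cyct. LOC680227 had a mean normalized count of 2.80 in the TSA-project controls and 1909 in the NaB-project controls.

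Genes of neighbouring steps were examined in 91 further genes of fixed pathway lists, of which 21 had an identifier, drawn from the same lists of upregulated genes. With TSA 18 of these 21 were called upregulated and with NaB 20, and none was called downregulated, where 22.5% and 21.2% of all tested genes were called upregulated, a direction fixed by the source of the identifiers. Their median log2 fold change was 2.27 with TSA and 2.19 with NaB, against 0.02 over all tested genes. In the tetrahydrobiopterin list, Gch1 and Gchfr were measured among 8 genes. Gch1 encodes GTP cyclohydrolase, the first and rate-limiting enzyme of the cofactor's synthesis, and Gchfr its feedback regulator. Gch1 reads were 31, 31 and 26 in the TSA-project controls and 429, 312 and 431 after TSA, then 13 and 11 in the NaB-project controls and 339 and 325 after NaB. Its log2 fold change was 3.52 (SE 0.19, limma adjusted p = 6.4e-07) with TSA and 4.56 (SE 0.23, limma adjusted p = 2.7e-06) with NaB. In contrast to Tph2, Gch1 was lower in the NaB-project controls than in the TSA-project controls (log2 difference -1.24, SE 0.21, limma adjusted p = 0.022). Gchfr rose by 3.83 with TSA and 4.10 with NaB on the log2 scale, from 10, 5 and 9 reads in the TSA-project controls to 185, 92 and 150. Gch1, Gchfr and Tph1 each rose with both drugs, a shared direction already set by their entry through the lists of both drugs.

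Among 14 serotonin receptor genes 2 were measured. Htr5b went from 7, 19 and 12 reads to 334, 367 and 287 with TSA and from 10 and 8 to 291 and 193 with NaB, with log2 fold changes of 4.53 (SE 0.30) and 4.46 (SE 0.37). Htr1d, an inhibitory receptor, was called with NaB (log2 fold change 2.19, SE 0.58, limma adjusted p = 0.0088) but not with TSA (0.95, SE 0.47, limma adjusted p = 0.11), and its NaB call was lost without the second NaB-project control (1.53, limma adjusted p = 0.075). With TSA, Htr1d was called against all 5 controls as 1 group (1.38, limma adjusted p = 0.029), and its value was 0.58 (limma adjusted p = 0.33) without the second TSA-project control. The difference between the Htr1d responses was not called (NaB minus TSA 1.25, SE 0.75, limma adjusted p = 0.53). Tgm2, the tissue transglutaminase that attaches serotonin to glutamine residues of proteins including histone H3, was the measured one of 8 transglutaminase genes. Its reads went from 10, 16 and 30 to 71, 80 and 81 with TSA and from 17 and 36 to 159 and 183 with NaB. The groups did not overlap in either project, and the log2 fold changes were 1.96 (SE 0.38, limma adjusted p = 0.0011) and 2.61 (SE 0.46, limma adjusted p = 0.00085). In the tryptophan and kynurenine list Kyat3, a kynurenine aminotransferase, rose with TSA (1.73, SE 0.13) and with NaB (1.48, SE 0.16), and Ido2 was called with NaB (2.18, SE 0.58, limma adjusted p = 0.0091) but not with TSA (0.72, SE 0.47). The difference between the Ido2 responses was not called (NaB minus TSA 1.46, SE 0.75, limma adjusted p = 0.46). The identifiers of Htr1d and Ido2 came from the NaB list alone, so their calls with NaB only are not independent evidence. The Ido2 call with NaB was lost without the second NaB-project control (1.67, limma adjusted p = 0.0699) or the first NaB-treated library (1.88, limma adjusted p = 0.0677).

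Of the 12 genes on the fixed list of serotonergic fate factors, 6 were measured. All 6 were called upregulated with TSA and 5 with NaB, where 22.5% and 21.2% of all tested genes were. Their identifiers too came from the lists of upregulated genes, those of Lmx1a, En1 and En2 from the TSA list alone. Nkx6-1, a ventral patterning homeobox gene, had 3 reads in all over the 5 controls, and its mean normalized count was 123 after TSA and 84.9 after NaB. Gata2 and Gata3, zinc finger factors upstream of serotonergic identity, rose with TSA by 6.12 (SE 0.52) and 4.28 (SE 0.54) and with NaB by 4.11 (SE 0.64) and 2.02 (SE 0.66) on the log2 scale. The TSA-project controls held 3 Gata2 reads and 1 Gata3 read in all, so these sizes move with the pseudocount, and over 22 alternatives the TSA values ran from 4.47 to 7.00 for Gata2 and from 2.45 to 6.12 for Gata3. Gata2 with NaB was 3.31 without the first NaB-project control and 4.91 without the second. The NaB call of Gata3 was lost without the first NaB-project control (1.43, limma adjusted p = 0.16) or the second NaB-treated library (1.68, limma adjusted p = 0.14). En1 and En2, engrailed genes of the midbrain and anterior hindbrain, rose by 2.61 (SE 0.25) and 1.95 (SE 0.41) with TSA and by 1.61 (SE 0.30) and 1.69 (SE 0.51) with NaB, and the NaB call of En2 was lost without the second NaB-project control (1.48, limma adjusted p = 0.0849) or the first NaB-treated library (1.33, limma adjusted p = 0.12). Lmx1a, the paralog of Lmx1b, rose with TSA (1.96, SE 0.59, limma adjusted p = 0.014), a call lost without the first (1.71, limma adjusted p = 0.0579) or the third TSA-treated library (1.70, limma adjusted p = 0.0567), and was not called with NaB (1.34, SE 0.72, limma adjusted p = 0.14). The NaB value of Lmx1a rested on the pair of NaB-project controls: it was 0.27 (limma adjusted p = 0.78) without the first and 2.41 (limma adjusted p = 0.0199), a call, without the second. No gene of this list was called between the untreated cultures of the projects. Gata3 and En1 came nearest among them, with log2 differences of 2.29 (limma adjusted p = 0.078) and 1.07 (limma adjusted p = 0.075) towards the NaB-project controls.

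**Figure D4:**
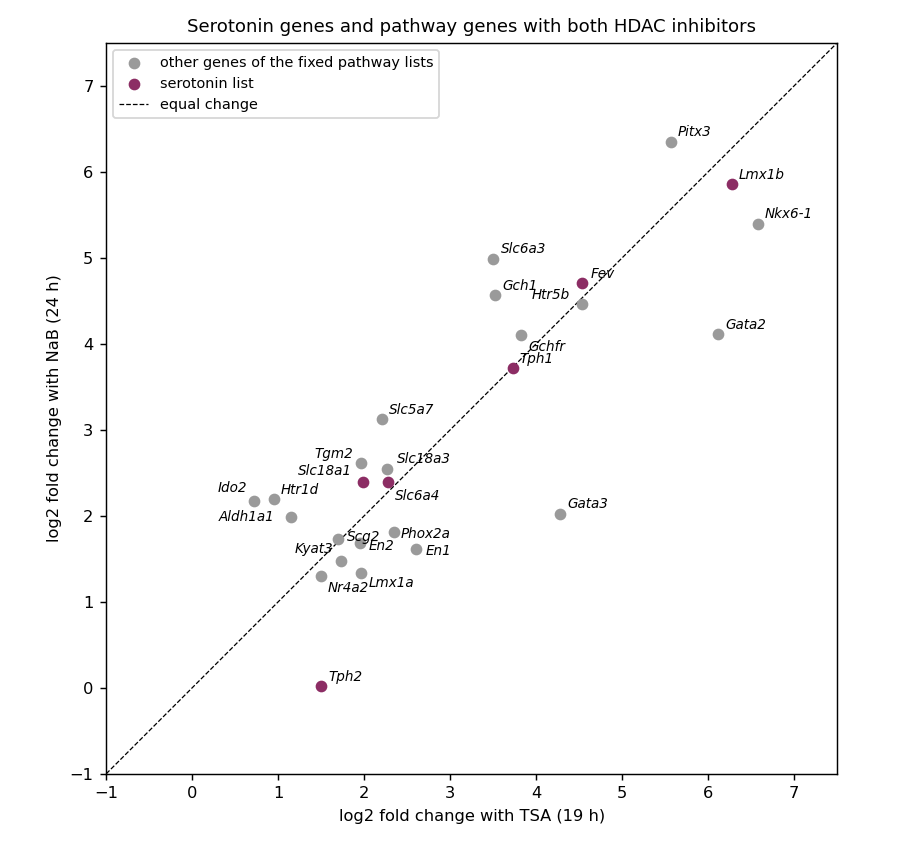
Log2 fold change with NaB (y axis) against log2 fold change with TSA (x axis) for the 6 measured serotonin genes (purple) and the 21 measured genes of the other pathway lists (grey); the dashed line marks equal change. Tph2 lies at 0.02 with NaB and 1.50 with TSA, below the line, whereas Tph1, Slc6a4, Slc18a1, Fev and Lmx1b lie close to it.

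The label of the cultures as neurons could not be checked against defining markers, since 3 of 56 marker genes of neurons, glia, vascular, mast, pineal and hindbrain cells had an identifier beside the engrailed genes, and none of them was a marker of neurons or glia. Of the endothelial list Kdr was measured among 5 genes and rose with both drugs (log2 fold changes 2.53, SE 0.32, and 1.27, SE 0.40). Of 5 mural and fibroblast genes Rgs5 rose with both (2.75, SE 0.36, and 2.59, SE 0.44). The marker identifiers too came from the lists of upregulated genes, so these rises are not independent evidence on cell types. Of all tested genes 22.5% were called upregulated with TSA and 21.2% with NaB. Col1a1, the most abundant marker measured, varied between controls, with 862, 46 and 1293 reads in the TSA project and 144 and 131 in the NaB project, against 851, 769 and 905 after TSA and 927 and 997 after NaB, and was not called with either drug (limma adjusted p = 0.38 and 0.074). The second TSA-project control, with few Col1a1 reads, had 1 Tph1 read against 4 in each of the other 2 controls. Leaving it out changed no call of the 6 serotonin genes with TSA or NaB, and the TSA value of Tph1 was then 3.27 in place of 3.72. The part of other cell types in the changes of the serotonin genes was not tested.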

How the data were processed

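Libraries of poly(A) RNA from 10 cultures were sequenced for the study. Per the labels, the authors aligned reads with STAR 2.7.9a to Rnor_6.0, counted them with featureCounts 2.0.1 and normalized them with DESeq2 1.29. The deposited file holds these normalized counts, a signal of reads divided by 1 size factor per library. Dividing by the value of 1 read gave whole reads for 100% of the positive values (tolerance 1e-06). Whether counting used strand is not given in the sources used here, so overlapping and antisense genes are uncertain. Groups came from the labels. The methods state that a control and a treated culture were grown on the same plate. Which libraries these were is not given in the sources used here, so libraries of the same replicate number were taken as plate pairs. Deviations of these paired libraries from their group means correlated (r from 0.28 to 0.39), and pairs were used as a block in an alternative.

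Genes were kept by the filterByExpr function of edgeR 4.0.16 (minimum count 10), leaving 15717. The test was limma 3.58.1 with a mean-variance trend on log2(value + 1) over the 4 groups and all 10 libraries, with Benjamini-Hochberg adjustment over all tested genes. It was checked on simulated data. Alternatives were edgeR, DESeq2 1.42.0, other scalings, pseudocounts of 0.5 and 5, no filter, no minimum fold change, pooled controls, each comparison alone, the plate pair as a block and each library left out. Replicate libraries differed by more than counting noise. Whether replicates came from separate litters is not stated, so p-values measure the spread between these libraries. Intervals and limits on counts cover counting error only.

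Symbols were matched through 1911 pairs of identifier and symbol in the study's lists of upregulated genes, whose fold changes and p-values were not used. The genes and the lists were chosen with earlier results of these data known. Named were all listed genes; of each pathway list the 2 called genes with the highest and the 2 with the lowest mean change, plus those the study names; the most abundant marker of each list; and the 3 genes most correlated with the most abundant gene of each role. En1 and Rgs5 were added after their values were seen.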

Additional observations from a re-analysis of the deposited data

How the results depend on the processing

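The calls of Tph1, Slc6a4, Slc18a1, Fev and Lmx1b with TSA and with NaB were the same under all 22 alternatives, as was the higher Tph2 level in the NaB-project controls (log2 difference 3.55 to 4.93 over 19 alternatives). With TSA 6 serotonin genes were called upregulated, or 5 with all 5 controls as 1 group, where Tph2 went to -0.22, and with NaB 5 in each alternative. Values near 0 changed sign: Tph2 with NaB was -0.052 with DESeq2, -0.068 with edgeR and TMM, -0.052 with edgeR and the deposited size factors and between -0.61 and 0.64 with 1 library left out. For the NaB response minus the TSA response, Tph1 was 0.31 with pseudocount 5 and 0.76 with pooled controls, and Fev was -0.15 with DESeq2, -0.13 with edgeR and TMM and -0.13 with edgeR and the deposited size factors. With 1 library left out that difference ran from -0.36 to 0.45 for Tph1, from -0.38 to 0.62 for Slc6a4 and from -0.34 to 0.69 for Fev, and the difference between the controls from -0.56 to 0.44 for Slc6a4 and from -0.34 to 0.68 for Fev. None of these was called. The response difference of Tph2, -1.48, is not near 0 and was not called. With pooled controls the controls cancel, so the 2.82 obtained there compares the treated groups and not the responses. With 1 library left out, the Tph2 difference ran from -2.11 to -0.86.

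Over all tested genes, 47 differed between the responses, against 250 with DESeq2, 71 with library totals and 31 without a filter. The number was 404 with the plate pair as a block and 14 to 45 with 1 TSA-project library left out. With pooled controls, 422 genes differed between the treated groups themselves. Between the control groups 243 differed, against 587 with DESeq2, 104 without a filter and 22 to 461 with 1 library left out. The plate pair as a block changed no call of the 6 serotonin genes and called Aldh1a1 with TSA. Scaling by library totals moved the median log2 fold change of all genes to 0.20 with TSA and 0.13 with NaB, and the split of calls to 4675 up and 2166 down with TSA and 3923 up and 2576 down with NaB, from 3540 and 3104 and from 3337 and 3184. The cause of these shifts was not tested. Depth limits the controls: at fewer than 10 reads a value carries wide counting error, so the folds of Fev and Lmx1b are bounds or broad intervals. Groups of 2 or 3 libraries limit every test, and 1 sample left in a group is assumed to vary as the others. DESeq2 gave no adjusted p for the response difference of Fev and Slc6a4.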

Other observations

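Of 11 listed genes of other monoamine neurons and of acetylcholine neurons, 5 were measured, and all 5 were called upregulated with both drugs, where 17.0% of all tested genes were. Their identifiers were again drawn from lists of upregulated genes. Pitx3, a homeobox gene of midbrain dopamine neurons, had 7 reads in all in the TSA-project controls and 1 in the NaB-project controls, and its mean normalized count was 156 after TSA and 115 after NaB. Slc6a3, the dopamine transporter, which belongs to the list of other monoamine uptake and is not among the 5, rose by 3.50 (SE 0.61, limma adjusted p = 0.00062) with TSA and 4.99 (SE 0.75, limma adjusted p = 0.00031) with NaB on the log2 scale. The NaB-project controls held 3 and 0 Slc6a3 reads, and the NaB value was 6.01 without the first and 3.97 without the second. Over 22 alternatives the TSA value ran from 2.37 to 4.02. Slc18a3 and Slc5a7, the vesicular acetylcholine and choline transporters, rose by 2.27 (SE 0.24) and 2.21 (SE 0.33) with TSA and by 2.55 (SE 0.29) and 3.12 (SE 0.40) with NaB. The NaB value of Slc5a7 ran from 2.51 to 3.73 with 1 library left out, and its lowest value over 22 alternatives was 2.06. Nr4a2 rose by 1.50 (SE 0.16) and 1.30 (SE 0.20), and Phox2a by 2.34 (SE 0.22) and 1.81 (SE 0.27). Slc5a7, like Gch1, was lower in the NaB-project controls than in the TSA-project controls (log2 difference -1.77, SE 0.37, limma adjusted p = 0.042).

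Aldh1a1, an aldehyde dehydrogenase, had normalized counts of 52.7, 47.4 and 28.8 in the TSA-project controls, 83.5, 203 and 47.6 after TSA, 126 and 158 in the NaB-project controls and 390 and 809 after NaB. It was called with NaB (log2 fold change 1.99, SE 0.57, limma adjusted p = 0.014), a call lost without the first NaB-project control (1.83, limma adjusted p = 0.0658) or the second NaB-treated library (1.46, limma adjusted p = 0.11). With TSA its value was 1.14 (SE 0.47, limma adjusted p = 0.055), and it was called with the plate pair as a block (limma adjusted p = 0.0029), by DESeq2 (adjusted p = 0.0399) and by edgeR with TMM (adjusted p = 0.037). It was not called against all 5 controls as 1 group (0.45, limma adjusted p = 0.53), and with 1 library left out the value ran from 0.59 (limma adjusted p = 0.20) without the second TSA-treated library to 1.62 (limma adjusted p = 0.0104), a call, without the third. Scg2, a granin of secretory granules, rose by 1.69 (SE 0.13) with TSA and 1.73 (SE 0.16) with NaB.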
